A study of Homo sapiens with 2 samples.

Results

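The 9 genes described here encode proteins that restrain complement or bind its fragments: the membrane complement regulatory proteins (mCRPs) CD46, CD55 and CD59, the complement receptors CR1 and CR2, the soluble regulators CFI, CLU and SERPING1, and the C1q-binding protein C1QBP. They were chosen by name, for their function, from an RNA-seq table with 37122 gene rows that covers Ramos and Ramos640 cells, and all 9 had a row. Of these, 5 had at least 10 reads in both libraries together (CD46, CD55, CD59, CR2 and C1QBP), 3 had 1 or 2 reads (CR1, CLU and SERPING1), and CFI had none. CR2 was the 1 member past a 1.5-fold difference. It was 11.2-fold lower in Ramos640 cells, while CD46 was 1.44-fold lower, CD59 was 1.29-fold higher, C1QBP was 1.26-fold higher, and the counting interval of CD55 included no difference.

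Complement is a cascade of serum proteins that an antibody such as rituximab, directed at CD20, starts when it binds a cell and recruits C1q. Convertases on the cell surface then cleave C3 and C5, and the terminal components assemble into the membrane attack complex, which lyses the cell. Host cells carry brakes at each level. CD55 speeds the decay of the convertases, CD46 is a cofactor with which factor I (CFI) cuts deposited C3b and C4b, and CD59 keeps C9 from completing the pore. CR1 acts as both a cofactor and a decay factor. CR2, also called CD21, binds the C3d that remains on an antigen and, together with CD81 and other partners, lowers the threshold of B-cell receptor signaling. CR2 is also the receptor of Epstein-Barr virus. SERPING1 is the C1 inhibitor, CLU (clusterin) binds the terminal complex in the fluid phase, and C1QBP is mainly a protein of the mitochondrial matrix that was first found as a binder of the globular heads of C1q.

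Ramos is a human Burkitt's lymphoma cell line, and Ramos640 is a line derived from it that resists the complement-dependent cytotoxicity (CDC) of rituximab. Both were grown in the same serum-supplemented medium. Ramos640 cells were also exposed every 21 days to rituximab and to 20% normal human serum (NHS) as a source of complement, and the rituximab concentration of 640 is in mg/mL in the labels and in μg/mL in the methods. The time between the last exposure and RNA extraction is not given in the sources used here. RNA of 3 passages was pooled for each line, so there was 1 library per line, no difference has a replicate check, and a change of 1 culture cannot be told apart from an effect of resistance. The libraries held 38030090 reads (Ramos) and 30871826 reads (Ramos640). Normalized read counts are the deposited counts over size factors of 1.14 and 0.876, set by the median-of-ratios method, and the fold change was taken after adding 1 to each. All intervals are exact at the 95% level and cover counting error only. Where no read was seen, up to 3 reads remain possible, or 0.0789 CPM (reads scaled to the library total) for Ramos and 0.0972 CPM for Ramos640.

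All 7 B-cell and all 4 germinal centre genes examined had more than 3 reads in each library. The B-cell genes together had 193110 reads in Ramos and 189863 in Ramos640, and the germinal centre genes had 43488 and 36749. Their levels were not all alike in the 2 lines. By log2 fold change, PAX5 (-0.80), MME (-0.92) and MS4A1 (-1.96) were past 1.5-fold lower. CD79B (0.64), CD74 (0.63) and MYC (0.79) were past it higher, and the rest lay within it. Transcripts of other cells were scarce, with 6 and 32 reads over 4 T-cell genes (CD3D and CD2 at 0 in both, CD3E at 1 and 31), 20 and 17 over 5 monocyte genes, 42 and 16 over 4 epithelial genes, and 2 and 0 over 3 liver genes. Fibroblast collagens were the exception. COL1A1, COL1A2 and COL3A1 together had 1283 reads in Ramos (33.7 CPM) and 394 in Ramos640 (12.8 CPM), a log2 ratio of -1.32. The collagens thus moved in the same direction as CR2 and CD46 and against CD59 and C1QBP. Their part in those differences was not tested.

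The 250 bases before the RefSeq start of the 4 membrane protein genes with at least 10 reads follow, because these genes held both the largest and the smallest difference among the 5 members tested and 3 of them are neighbours on chromosome 1. Coordinates are those of GRCh38.p14, and each sequence also occurred exactly once on its chromosome in GRCh37, the build of the alignment. They lie at chr1:207454078-207454327 (CR2, plus strand), chr1:207321428-207321677 (CD55, plus strand), chr1:207751788-207752037 (CD46, plus strand) and chr11:33736480-33736729 (CD59, minus strand). The RefSeq starts of CR2 and CD55 lie inside the GENCODE gene spans used for positions, which begin further upstream. The table lists 2 starts for CD46 and 4 for CD59, and the first was taken. Capitals mark matches on either strand to 4 promoter motifs, which are the TATA box (TATAAA), the CCAAT box, the GC box (GGGCGG) and the E box (CACGTG).
CR2: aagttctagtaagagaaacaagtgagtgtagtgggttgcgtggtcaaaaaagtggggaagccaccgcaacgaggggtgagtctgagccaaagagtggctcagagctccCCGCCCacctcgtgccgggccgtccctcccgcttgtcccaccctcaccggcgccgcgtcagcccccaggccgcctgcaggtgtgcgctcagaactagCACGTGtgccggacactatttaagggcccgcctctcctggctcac
CD55: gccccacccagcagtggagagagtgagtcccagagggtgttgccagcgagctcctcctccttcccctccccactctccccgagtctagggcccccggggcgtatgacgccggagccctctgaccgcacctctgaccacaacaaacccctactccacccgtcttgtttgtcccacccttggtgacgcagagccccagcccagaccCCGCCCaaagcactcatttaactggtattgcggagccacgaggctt
CD46: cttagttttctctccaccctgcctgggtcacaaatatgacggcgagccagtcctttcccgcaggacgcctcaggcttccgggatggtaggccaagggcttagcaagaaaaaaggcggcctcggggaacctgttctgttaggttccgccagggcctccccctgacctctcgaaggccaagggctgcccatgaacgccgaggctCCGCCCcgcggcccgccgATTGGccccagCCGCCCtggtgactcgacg
CD59: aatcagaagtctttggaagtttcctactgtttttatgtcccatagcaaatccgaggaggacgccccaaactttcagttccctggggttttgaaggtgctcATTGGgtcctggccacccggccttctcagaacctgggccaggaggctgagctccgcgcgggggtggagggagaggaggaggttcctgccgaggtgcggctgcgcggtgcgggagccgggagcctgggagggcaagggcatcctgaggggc

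CR2 was the 1 gene of the 4 with an E box, the motif of Myc-family and related helix-loop-helix proteins. Its first base lay at -45 from the start, and 6.34% of all 35116 windows of this length in the table hold such a match. CR2 and CD55 each had 1 GC box and CD46 had 2 (42.6% of windows hold one), while CD46 and CD59 each had 1 CCAAT box (32% of windows). None of the 4 had an exact TATAAA match (10.7% of windows hold one), and variants of the TATA box were not sought. The GC content of the windows was alike, at 62.8% for CR2, 64% for CD55, 64.8% for CD46 and 62% for CD59, against a median of 58% over all windows. These matches describe the letters only.

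CR2 had 1226 reads in Ramos and 83 in Ramos640, which are 1074 and 94.7 normalized read counts. The log2 fold change was -3.49, with an interval from -3.84 to -3.18, or 9.08-fold to 14.3-fold lower. Of the 5 members with at least 10 reads, CR2 alone passed 1.5-fold in the lower direction, as did 17.3% of the 18778 genes tested, and no member passed it in the higher direction, as did 14.6% of them. Of 12619 genes whose higher library held at least 100 reads, CR2 ranked 23rd from the lowest log2 fold change, within the lowest 0.182%. With an assumed biological coefficient of variation of 0.1, 0.2 or 0.4 in edgeR's exact test, CR2 was the 1 member past 1.5-fold lower and called, as were 10.8%, 2.74% and 0.192% of all genes tested, and 0 members were called higher (8.37%, 1.65% and 0.133% of all genes). These calls rest on the assumption and compare 1 library with 1 library, and at 0.4 CR2 lay only just inside the cut for a call. Since no other member passed 1.5-fold, the assumed values could change the call of CR2 only. Fewer cells with the transcript and less of it per cell cannot be told apart in these pooled cultures. CR2 works on the B-cell surface in a complex that includes CD81 and IFITM1 (also called Leu-13). CD81 had 11170 and 9659 reads (log2 fold change 0.17, interval from 0.13 to 0.21) and stayed within 1.5-fold. Its value was 0.091 under total counts and turned to -0.0050 with the trend over GC content removed. IFITM1 was scarce, with 38 and 13 reads, and was 2.17-fold lower (log2 fold change -1.11, interval from -2.20 to -0.23).

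**Figure D1:**
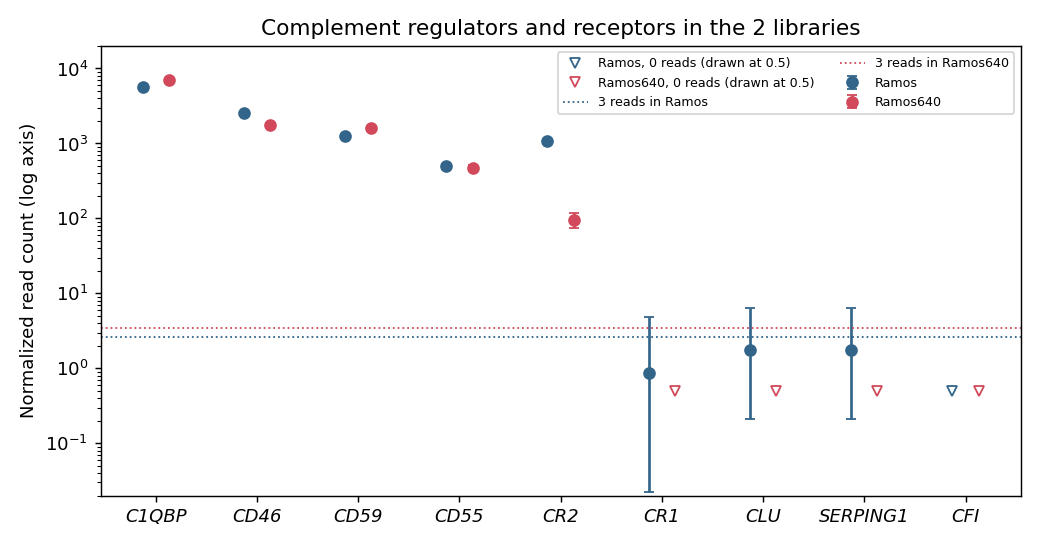
Normalized read counts (log axis) of the 9 genes in the Ramos (blue) and Ramos640 (red) libraries, with 95% Poisson intervals as bars, open triangles for 0 reads and dotted lines at 3 reads. CR2 stands at 1074 in Ramos and 94.7 in Ramos640, and the other 4 genes with at least 10 reads differ far less. CR1, CLU, SERPING1 and CFI lie under the dotted lines.

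The 3 mCRPs did not move together. CD46 had 2915 reads in Ramos and 1554 in Ramos640, or 2554 and 1773 normalized read counts. It was lower in Ramos640, with a log2 fold change of -0.53 and an interval from -0.62 to -0.44 (1.35-fold to 1.53-fold), and so lay just inside the 1.5-fold limit of 0.585 on the log2 scale. Scaled to total counts the value was -0.61, which is past that limit. CD59, the inhibitor of the membrane attack complex, had 1437 and 1427 reads, or 1259 and 1628 normalized read counts. It was higher in Ramos640, with a log2 fold change of 0.37 and an interval from 0.26 to 0.48 (1.20-fold to 1.39-fold), inside the 1.5-fold limit. CD55 had 564 and 414 reads, or 494 and 472 normalized read counts, and its log2 fold change of -0.065 had an interval from -0.25 to 0.12. A difference in CD55 beyond 1.19-fold was therefore outside the counting error. CD46 and CR2 had intervals below 0 and CD59 and C1QBP had intervals above 0. Such an interval was common at this depth, since 61.2% of the 18778 genes tested had one that excluded 0 (29.6% above and 31.6% below). The median log2 fold change of the 5 members with at least 10 reads was -0.065, against -0.015 over all genes tested.

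Across the table, genes with a low GC content tended to be lower in the Ramos640 library. Over 10245 protein-coding genes, the 10% with the lowest GC content had a median log2 fold change of -0.34 and the 10% with the highest had one of 0.19. The longest transcripts of CD46 (37.7% GC) and CD55 (40.8%) lie toward the low end, and those of CD59 (45.4%), CR2 (45.3%) and C1QBP (50.8%) lie higher. With the running median over GC content subtracted, CD46 was at -0.21 and CD55 turned to 0.16, while CD59 was at 0.43, C1QBP at 0.25 and CR2 at -3.43. The sign of the CD55 difference thus depended on this correction. The values of CD46, CD55 and C1QBP each moved outside their counting intervals, and those of CD59 and CR2 stayed inside. Whether the trend arose in the cells or in library preparation was not tested.

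**Figure D2:**
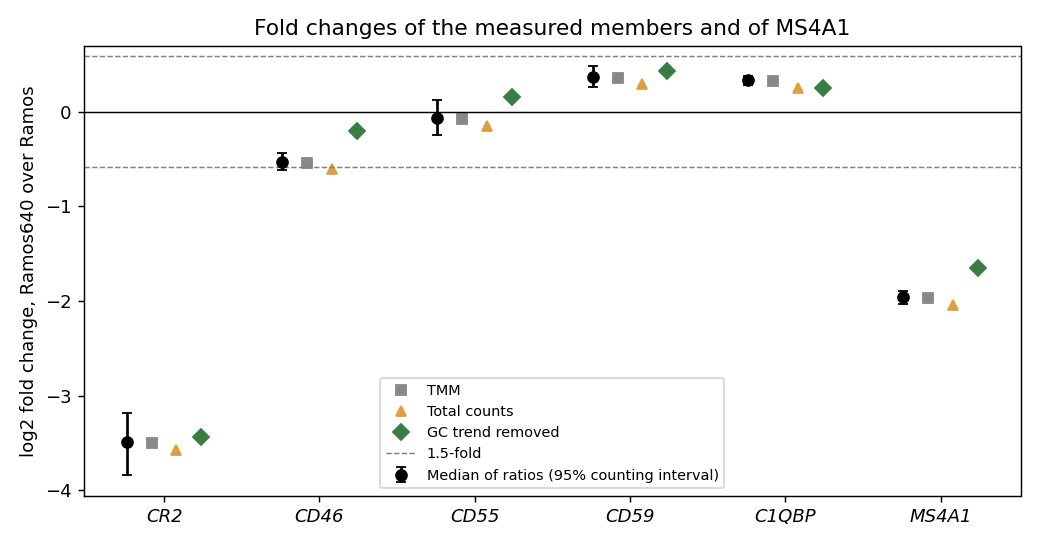
Log2 fold changes (Ramos640 over Ramos) for the 5 members with at least 10 reads and for MS4A1, under 4 ways of scaling, with 95% counting intervals on the main value and dashed lines at 1.5-fold. CR2 stays between -3.57 and -3.43, CD46 crosses the lower dashed line with total counts alone, CD55 crosses 0 when the GC trend is removed, and CD59 stays above 0.

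The balance among the 3 mCRPs can be read within each library without any scaling between libraries, although the shares are not corrected for the GC trend. CD46 took 59.3% of their 4916 reads in Ramos (interval from 57.9% to 60.7%) and 45.8% of their 3395 reads in Ramos640 (44.1% to 47.5%). CD59 took 29.2% (28% to 30.5%) and 42% (40.4% to 43.7%), and CD55 took 11.5% (10.6% to 12.4%) and 12.2% (11.1% to 13.3%). CD59 thus gained the share that CD46 lost, and the shares of CD55 overlapped. There were 0.493 CD59 reads per CD46 read in Ramos and 0.918 in Ramos640, a 1.86-fold higher ratio (interval from 1.69 to 2.05). The log2 change of this ratio was 0.90, and it was 0.64 with the GC trend removed, which is outside the counting interval. The ratio of CD59 to CD55 was 1.35-fold higher (1.17 to 1.57) and that of CD55 to CD46 was 1.38-fold higher (1.19 to 1.59). With the GC trend removed, their log2 changes went from 0.44 to 0.27 and from 0.46 to 0.37. The 3 genes together had 4308 normalized read counts in Ramos and 3874 in Ramos640 (log2 ratio -0.15, interval from -0.22 to -0.090). The GC trend was -0.32 at the GC content of CD46, -0.22 at that of CD55 and -0.057 at that of CD59. It was not removed from this sum, so whether the sign of the sum holds without the trend was not tested.

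MS4A1, which encodes CD20, had 9654 and 1904 reads and was 3.89-fold lower in Ramos640, at -1.96 on the log2 scale with an interval of -2.03 to -1.89. Its value was -2.04 under total counts and -1.65 with the GC trend removed, both outside that interval. No mCRP fell as far as MS4A1, so the ratio of each mCRP to MS4A1 was necessarily higher in Ramos640. The reads of CD59 per MS4A1 read were 0.149 in Ramos and 0.749 in Ramos640, a 5.04-fold higher ratio (interval from 4.6 to 5.5). The log2 change of this ratio was 2.33, and it was 2.07 with the GC trend removed, which is outside the counting interval. For CD55 the ratio was 3.72-fold higher (3.24 to 4.27) and for CD46 it was 2.70-fold higher (2.50 to 2.93). CR2 fell further than MS4A1, so its ratio to MS4A1 was lower, by 2.91-fold (2.32 to 3.70).

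**Figure D3:**
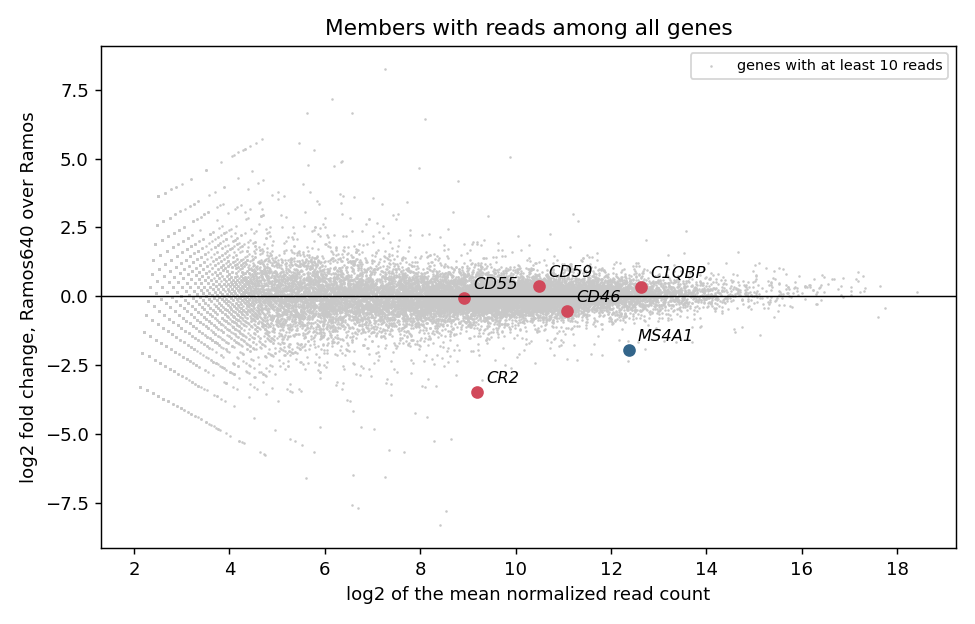
Mean normalized read count (log2) against log2 fold change (Ramos640 over Ramos) for the 18778 genes with at least 10 reads (grey), with the 5 members (red) and MS4A1 (blue) named. CD55, CD59, CD46 and C1QBP lie near the centre of the grey points, and CR2 at -3.49 and MS4A1 at -1.96 lie toward the lower edge.

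C1QBP was the most abundant member, with 6377 reads in Ramos and 6164 in Ramos640, or 5588 and 7034 normalized read counts. Its log2 fold change was 0.33, with an interval from 0.28 to 0.38, and 0.25 under total counts. Exons of RPAIN (opposite strand, 101 bases) and of DHX33 (same strand, 22 bases) overlap those of C1QBP, and these neighbours had 1241 and 917 reads and 1396 and 1209 reads, so a small share of reads could have been split. The other soluble or surface regulators were at or under the floor of 3 reads. CR1 had 1 read in Ramos and 0 in Ramos640, CLU had 2 and 0, SERPING1 had 2 and 0, and CFI had 0 and 0. No fold change is given for these 4 genes, and a difference was not detectable at this depth. CR1 contains long internal repeats and has the near copy CR1L, which also had 0 reads in both libraries, and how reads that fit several places were counted is not stated. CD46P1, a partial copy of CD46, had 22 and 21 reads, which are few beside those of CD46.

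Levels of different genes were compared per length, as TPM (reads per base over the union of a gene's exons, scaled to 1 sum in each library). In Ramos, C1QBP had 184 TPM (interval from 179 to 188), CR2 had 16.4 (15.5 to 17.3), CD46 had 12.6 (12.2 to 13.1), CD59 had 9.15 (8.68 to 9.64) and CD55 had 3.70 (3.40 to 4.02). No neighbours in this order had overlapping intervals. In Ramos640, C1QBP had 204 TPM (198 to 209), CD59 had 10.4 (9.89 to 11.0), CD46 had 7.73 (7.35 to 8.12), CD55 had 3.11 (2.82 to 3.43) and CR2 had 1.27 (1.01 to 1.58). CR2 therefore went from the second to the last place, and again the intervals of neighbours did not overlap. Among all genes with reads and a known length, CR2 was in the top 32.4% by TPM in Ramos and the top 69.2% in Ramos640, and C1QBP was in the top 4.46% and 4.02%. The order rests on the length used. By coding length, CD59 stood above CD46 in both libraries and CR2 was last in both (11.1 and 0.926 TPM). By the longest transcript, CD59 stayed below CD46 in both, while CR2 went from above CD59 to last.

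CD55, CR2, CR1 and CD46 lie in this order on the plus strand of chromosome 1, in the regulators of complement activation cluster, over 474 kb of GRCh37. CD55 spans chr1:207494864-207560149, CR2 spans chr1:207626369-207663240, CR1 spans chr1:207669492-207815110 and CD46 spans chr1:207925382-207968858. CR2 starts 66.2 kb after the end of CD55 and ends 262 kb before the start of CD46. The low value of CR2 was thus not shared by its neighbours among the members with at least 10 reads, CD55 (-0.065) and CD46 (-0.53). There were 2.17 CR2 reads per CD55 read in Ramos and 0.2 in Ramos640, a 10.8-fold lower ratio (interval from 8.35 to 14.2), and the ratio to CD46 was 7.87-fold lower (6.24 to 10.0). CD46P1, between CR1 and CD46, was at 0.30 with an interval from -0.62 to 1.24. The other rows here, CR1, CR1L, the pseudogene C4BPAP2 before CD55 and CD34 after CD46, had at most 1 read. CD46 overlaps 797 exonic bases of the lncRNA MIR29B2CHG on the opposite strand, and the use of strand in counting is not stated. CD59 lies on chromosome 11 (33724556 to 33758025, minus strand) and C1QBP on chromosome 17 (5336097 to 5352150, minus strand). Exons of CD59 share 629 bases with those of a protein-coding gene without a symbol on the same strand, which had no row. Whether this affected the CD59 count was not tested.

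**Figure D4:**
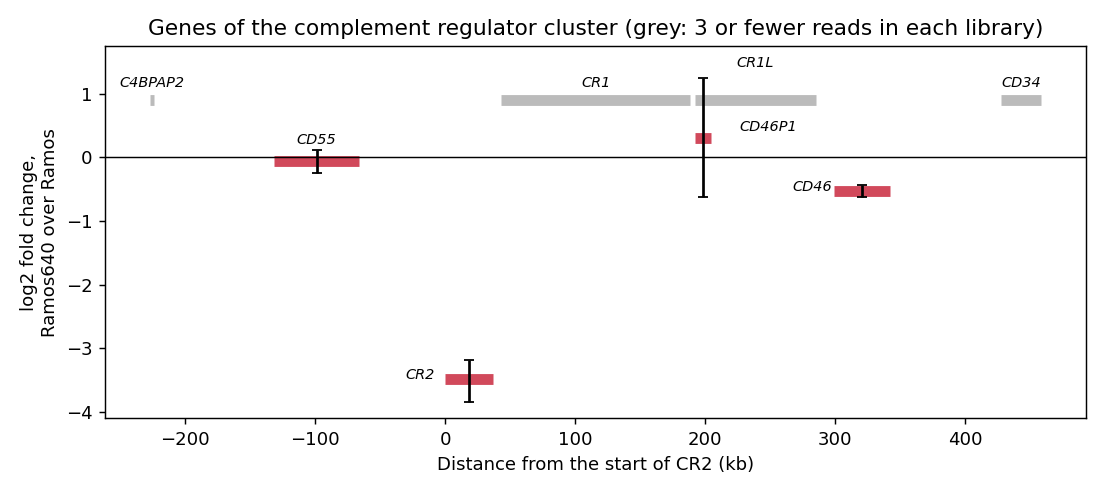
Log2 fold changes (Ramos640 over Ramos) for genes of the cluster against distance from the start of CR2 (kb), with each bar spanning its gene and lines for 95% counting intervals. CR2 sits at -3.49 between CD55 at -0.065 and CD46 at -0.53, and grey genes had 3 or fewer reads in each library and are drawn at a fixed height with no value.

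Most of the other complement genes examined had few or no reads in either line. Of 49 other complement genes in 6 lists (classical, lectin, alternative and terminal pathways, other regulators and other receptors), 23 had no reads, 9 had 1 to 9 reads, and 17 had at least 10. Of the 17, 4 were past 1.5-fold higher and 6 past 1.5-fold lower, against 14.6% and 17.3% of all genes tested, and their median log2 fold change was -0.53. The split was 4 higher and 10 lower under total counts and 4 higher and 9 lower with the GC trend removed. With a minimum of 100 reads, 3 genes were left, 1 higher and 0 lower, so most of these calls rest on few reads. VTN and C5AR2 were counted as lower although their intervals included 0. By list, 1 classical gene was higher and 2 were lower of 4 tested, 0 and 0 of 1 lectin gene, 0 and 1 of 3 alternative, 1 and 1 of 3 terminal, 1 and 1 of 3 other regulators, and 1 and 1 of 3 other receptors. Among the classical genes, C2 had 17 and 28 reads (log2 fold change 1.05, interval from 0.18 to 2.06), C4A had 40 and 9 (-1.68, -3.00 to -0.70) and C4B had 26 and 7 (-1.40, -2.96 to -0.27). C2 and C4 are the substrates of C1s that form the classical C3 convertase, and C4A and C4B are near-identical copies whose reads could have been exchanged. C1S had 11 and 8 reads and the 3 C1q chains had none. MASP2, a protease of the lectin pathway, had 27 and 30 reads.

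CFD (factor D), the protease that cleaves factor B in the alternative pathway, had 50 reads in Ramos and 5 in Ramos640, and was 6.68-fold lower (log2 fold change -2.74, interval from -4.62 to -1.62). C3 itself had 10 and 5 reads and properdin (CFP) had 8 and 4, with intervals that included 0. In the terminal pathway, C5 had 172 and 91 reads (-0.53, -0.92 to -0.16), C8G had 6 and 13 (1.34, with an interval that reached from 0.00091 to 3.18) and C9, the pore-forming component, had 14 and 0. Set against the floor of 3 reads in Ramos640, the 14 reads of C9 make it at least 3.58-fold lower, and the near limit of its counting interval, which also covers the error of those 14 reads, was 2.55-fold (-1.35 on the log2 scale). The other terminal genes C6, C7, C8A and C8B had no reads. Of the other regulators, SUSD4 had 111 and 57 reads (-0.57, -1.07 to -0.11), VTN (vitronectin) had 15 and 4 (-1.35, -3.58 to 0.12) and CSMD1 had 1 and 12, a 15.6-fold higher ratio with no count added (interval from 2.31 to 668). The log2 fold change of CSMD1 was 2.97 with 1 added and 1.12 with 10 added, and that of CFD was -1.78 with 10 added. The C4b-binding protein genes C4BPA and C4BPB had no reads. Of the receptors, C5AR2 had 14 and 5 reads (-0.98, -2.93 to 0.45) and ITGB2, the beta chain of CR3 and CR4, had 21 and 23, while the alpha chains ITGAM and ITGAX had at most 1. CALR, a chaperone of the endoplasmic reticulum that also binds C1q, had 38066 and 58543 reads and was 2-fold higher (log2 fold change 1.00, interval from 0.98 to 1.02). The log2 fold change of CALR was 0.92 under total counts and 0.88 with the GC trend removed, both outside that interval.

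**Figure D5:**
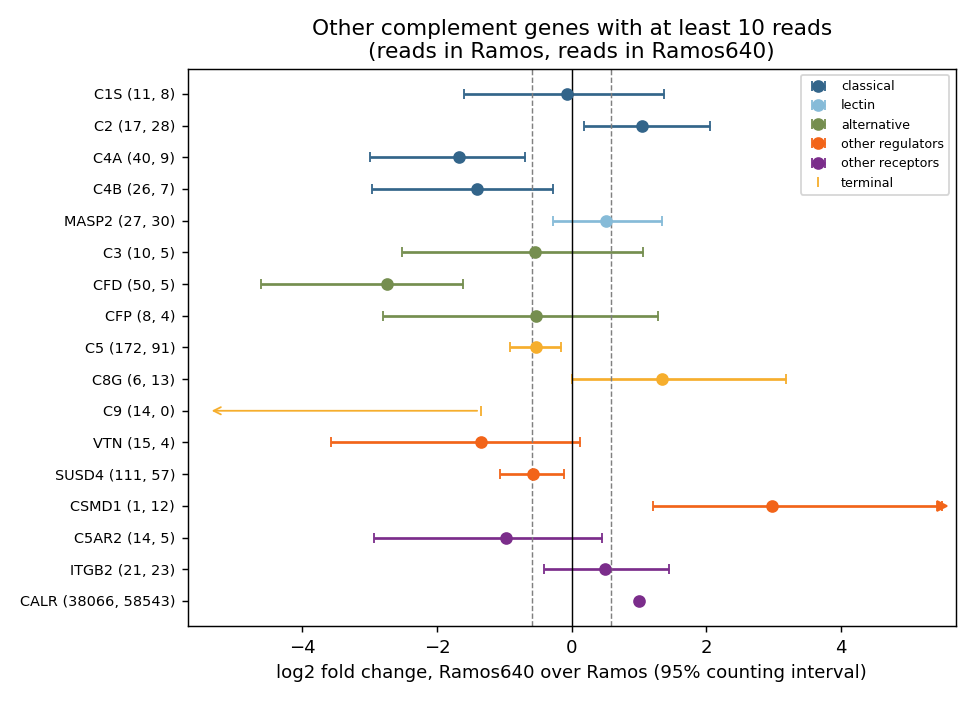
Log2 fold changes (Ramos640 over Ramos) with 95% counting intervals for the 17 other complement genes with at least 10 reads, with the reads of both libraries beside each name, colours for the 6 lists, dashed lines at 1.5-fold, and arrows where an interval runs past the axis or has no lower limit. CFD (50 and 5 reads) and C9 (14 and 0 reads) lie to the left, and CALR at 1.00 has by far the most reads.

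CD55 and CD59 are held in the membrane by a glycosylphosphatidylinositol (GPI) anchor, while CD46, CR1 and CR2 span the membrane. All 29 genes of GPI anchor synthesis examined had at least 10 reads. Of these, 7 were past 1.5-fold higher and 2 past 1.5-fold lower in Ramos640, and 20 lay within it, against 14.6% higher and 17.3% lower of all genes tested, with a median log2 fold change of 0.16. Under total counts the split was 7 higher and 4 lower, and with the GC trend removed it was 6 and 1. The highest fold change was that of PIGZ, a mannosyltransferase gene with 4 and 13 reads (1.81, interval from 0.39 to 4.16), and the lowest was that of PIGP, a subunit of the first transferase, with 392 and 161 reads (-0.90, interval from -1.18 to -0.63). PIGA, the gene whose loss removes GPI-anchored proteins in paroxysmal nocturnal hemoglobinuria, had 230 and 119 reads (-0.57, interval from -0.90 to -0.24) and was named after its value was seen. At 1.48-fold lower it was among the genes within 1.5-fold, and the GC trend at its GC content of 39.4% was -0.27.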

How the data were processed

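RNA of 3 passages per line was pooled into 1 Ion Proton library for Ramos and 1 for Ramos640 cells. The authors removed adaptors, aligned the reads to GRCh37 with MapSplice (v2.1.6) and deposited raw read counts per gene. The counting program, its annotation and its strand setting are not given in the sources used here. Of the 37122 rows, 28 are named by a number and were kept. With 1 library per line no dispersion can be estimated, so DESeq2 and the quasi-likelihood test of edgeR were not run, and no p-value is printed.

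Genes with at least 10 reads in both libraries together were tested against the fold of 1.5. Clopper-Pearson intervals at 95%, taken on the share of reads that came from Ramos640, give the limits of fold changes, exact conditional intervals those of ratios, and Poisson intervals those of levels. Alternatives were TMM factors, total counts, pseudocounts of 0.1 and 10, minimums of 1 and 100 reads, removal of a running median over 501 genes by GC content, stricter calls with edgeR's exact test (edgeR 4.0.16, R 4.3.3) at an assumed coefficient of variation, and other gene lengths. Lengths, GC content and GRCh37 positions came from GENCODE 44, mapped to GRCh37, which matched 26511 rows by their symbol, and 2302 more through RefSeq synonyms (84.2% of genes tested). Promoter sequences are from RefSeq on GRCh38.p14, and all 4 genes sought matched. Scripts (Python 3.11.15, scipy 1.17.1) were tested on simulated counts. The genes named are all members, MS4A1, the CR2 complex, other complement genes with at least 10 reads, neighbours in the chromosome 1 cluster, and the highest and lowest GPI fold change. Further genes with few or no reads were named after their values were seen. The members and lists were chosen with earlier results of these data known. A few genes of the lists are counted but not reported here by name.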

Additional observations from a re-analysis of the deposited data

How the results depend on the processing

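With 1 library per line and no replicates, the limits are the unmeasured spread between cultures and, for CR1, CLU, SERPING1 and CFI, the depth. No paired analysis was possible because each line has 1 library. Removal of the GC trend from ratios was chosen after seeing the data. For the changes below the cause was not tested, except where a minimum of reads sets which genes are counted.

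The log2 fold change of CR2 ran from -3.57 to -3.37 and that of CD59 from 0.29 to 0.43 over the scalings and pseudocounts tried. Total counts moved C1QBP to 0.25, made 2 members past 1.5-fold lower in place of 1 (CD46 joined CR2), and made 10 of the 17 other complement genes (6 before) and 4 of the GPI genes (2 before) past it. Removing the GC trend moved CD46 to -0.21, CD55 to 0.16, C1QBP to 0.25 and the members' median to 0.16, and left 1 GPI gene lower. A minimum of 1 read gave 4 lower members, 3 of them with at most 2 reads, a median of -0.72, and 8 higher and 11 lower of 26 other complement genes. A minimum of 100 reads left 3 of these, 1 higher and 0 lower, and 0 lower in the CR2 complex.

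In TPM for Ramos and Ramos640, the longest transcript gave 19.9 and 12.3 for CD46, 7.95 and 6.77 for CD55, 9.92 and 11.4 for CD59, and 291 and 326 for C1QBP. Coding length gave 72 and 47.4 for CD46, 12.5 and 11.4 for CD55, 111 and 136 for CD59, 11.1 and 0.926 for CR2, and 223 and 266 for C1QBP. The other 82 values of the members and lists stayed within counting error or within 1.5 times the main count, and no called value changed sign.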
